A study of Mus musculus with 16 samples.

Results

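The respiratory chain genes described here are the 100 protein-coding genes, of 21887 in the RefSeq table of the mouse genome, whose symbols start with Nduf, Sdha to Sdhd, Uqcr, Cox4 to Cox8 or Atp5. They encode subunits and assembly factors of the mitochondrial complexes I to V, and symbols alone chose them, no measured value. By complex they fall into 41 complex I subunits (Nduf), 8 complex I assembly factors (Ndufaf), 8 complex II genes (Sdh), 8 complex III genes (Uqcr), 18 complex IV genes (Cox) and 17 complex V genes (Atp5). Open chromatin near them was read from ATAC-seq peak lists. In ATAC-seq, the Tn5 transposase cuts accessible DNA, and a peak marks a place where cuts pile up.

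Cells came from the bone marrow of male C57Bl/6 mice and lacked the lineage markers CD3, CD4, B220, Ter119 and Gr1. They are labelled haematopoietic stem cells, although a lineage-negative fraction also contains committed progenitors. The 4 groups are control mice at baseline, control mice after interleukin-1β (IL-1β, 10 ng/mL), diabetic mice at baseline and diabetic mice after IL-1β, with 4 libraries each. Diabetes was induced with streptozotocin, which the labels give for the diabetic mice only. Each mouse sample was divided between baseline, lysed at once, and IL-1β, which came with 6 h of culture, so that IL-1β and culture cannot be told apart. Ages are not given in the sources used here, and libraries of one phenotype with the same number come from the same mouse sample.

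The respiratory chain passes electrons from NADH through complex I, and from succinate through complex II, to ubiquinone, then through complex III and cytochrome c to complex IV, which reduces oxygen. Complexes I, III and IV pump protons, and complex V, the ATP synthase, uses the gradient to make ATP. Quiescent haematopoietic stem cells are known for leaning on glycolysis, and oxidative phosphorylation gains weight as they cycle and differentiate. Nuclear respiratory chain genes are mostly ubiquitous, but complex IV has tissue-specific isoforms, such as the heart and muscle subunits Cox6a2, Cox7a1 and Cox8b.

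Promoters of these genes are known for sites of NRF1, of GABP and other ETS factors, of YY1 and of ERR nuclear receptors. Windows of 300 bases, from 250 before to 50 after a start, were in the RefSeq promoter table (GRCm38.p6) for 82 of the 100 members, 87 windows in all. The 250 bases before the start are printed for 8 members. They comprise Ndufaf8 and Sdhb, whose regions were the highest of the complex I assembly factors and of complex II, Atp5l, the lowest of complex V, and 5 complex IV isoform genes, open and closed. Capitals mark matches, on either strand, to NRF1 GCATGCG, ETS CCGGAAG, YY1 ATGGCGG, SP GGGCGG, ERR AAGGTCA, CRE GACGTCA, the CCAAT box, or TATAAA. No motif's letters contain another's, but matches may overlap, and GCATGCG overlaps its own reverse complement in Cox6a1 and Atp5l.

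The first pair are strongly open promoters, Ndufaf8 (chr11:120098684-120098933, plus strand) and Sdhb (chr4:140961021-140961270, plus strand).
Ndufaf8: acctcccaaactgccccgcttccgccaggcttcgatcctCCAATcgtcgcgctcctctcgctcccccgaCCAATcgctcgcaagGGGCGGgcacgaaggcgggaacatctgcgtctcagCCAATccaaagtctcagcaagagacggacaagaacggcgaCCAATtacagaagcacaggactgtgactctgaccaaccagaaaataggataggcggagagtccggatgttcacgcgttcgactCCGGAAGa
Sdhb: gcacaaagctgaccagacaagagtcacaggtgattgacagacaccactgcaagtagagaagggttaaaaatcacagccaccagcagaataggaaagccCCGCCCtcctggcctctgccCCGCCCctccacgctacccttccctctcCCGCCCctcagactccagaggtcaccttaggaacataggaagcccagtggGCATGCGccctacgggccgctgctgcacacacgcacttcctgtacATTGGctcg
Ndufaf8, an assembly factor of complex I, held 6 matches, of which 4 were CCAAT boxes and 1 an ETS match 8 bases before the start. Sdhb, the iron-sulphur subunit of complex II, held an NRF1 match 54 bases before the start and 3 SP matches.

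Cox6a1 is the ubiquitous isoform of a complex IV subunit (chr5:115348959-115349208, minus strand), and Atp5l encodes subunit g of complex V (chr9:44920743-44920992, minus strand).
Cox6a1: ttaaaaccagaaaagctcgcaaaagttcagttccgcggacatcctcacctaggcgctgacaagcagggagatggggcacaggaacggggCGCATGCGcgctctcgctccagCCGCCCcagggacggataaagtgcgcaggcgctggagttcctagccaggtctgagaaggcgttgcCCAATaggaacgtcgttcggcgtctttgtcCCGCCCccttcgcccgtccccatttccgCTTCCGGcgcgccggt
Atp5l: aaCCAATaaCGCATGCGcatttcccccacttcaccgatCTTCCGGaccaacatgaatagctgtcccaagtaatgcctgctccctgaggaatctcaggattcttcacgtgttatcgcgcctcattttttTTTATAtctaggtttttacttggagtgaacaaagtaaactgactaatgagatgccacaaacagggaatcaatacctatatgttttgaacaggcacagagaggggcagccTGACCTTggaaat
Both carried NRF1 and ETS matches, although their regions differed in level, with a mean of 79.4 scaled summit reads at Cox6a1 and 34.1 at Atp5l (reads at the highest summit, on a common scale for all libraries). Atp5l also held an ERR match 13 bases before its start.

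The other 4 windows set open against closed isoform genes of complex IV. Cox7a1 (chr7:30183921-30184170, plus strand), the heart and muscle isoform, was open, and so was the start of its ubiquitous partner Cox7a2 (chr9:79759854-79760103, minus strand). Cox8a (chr19:7217617-7217866, minus strand) was open, while its heart and muscle partner Cox8b (chr7:140900447-140900696, minus strand) had no consensus region.
Cox7a1: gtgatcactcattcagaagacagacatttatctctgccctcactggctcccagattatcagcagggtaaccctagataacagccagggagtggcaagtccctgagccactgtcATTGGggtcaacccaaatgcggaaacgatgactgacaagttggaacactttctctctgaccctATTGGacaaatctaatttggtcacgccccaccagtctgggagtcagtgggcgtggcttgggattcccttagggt
Cox7a2: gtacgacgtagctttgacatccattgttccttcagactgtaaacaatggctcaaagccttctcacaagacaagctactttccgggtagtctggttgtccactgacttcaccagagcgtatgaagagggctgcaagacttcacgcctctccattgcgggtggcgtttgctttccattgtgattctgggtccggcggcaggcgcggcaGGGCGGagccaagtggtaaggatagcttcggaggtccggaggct
Cox8a: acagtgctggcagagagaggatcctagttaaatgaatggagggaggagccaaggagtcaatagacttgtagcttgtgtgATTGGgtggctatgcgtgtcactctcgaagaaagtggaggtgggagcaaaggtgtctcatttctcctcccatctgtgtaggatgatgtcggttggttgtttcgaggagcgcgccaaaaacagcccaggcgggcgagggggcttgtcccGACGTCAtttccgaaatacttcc
Cox8b: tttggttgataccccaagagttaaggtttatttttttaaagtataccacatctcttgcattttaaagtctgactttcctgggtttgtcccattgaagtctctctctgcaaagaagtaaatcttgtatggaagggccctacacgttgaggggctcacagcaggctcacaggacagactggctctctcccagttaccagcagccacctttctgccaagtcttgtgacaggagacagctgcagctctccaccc
The Cox8b stretch held 1 CG pair and no match, whereas that of Cox8a held 11 CG pairs, a CRE match 23 bases before the start and a CCAAT box. The open Cox7a1 stretch held 4 CG pairs, and that of Cox7a2 held 14.

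Over the 300-base windows, NRF1 letters stood in 14.9% of the 87 member windows and in 4.44% of all 21263 windows of protein-coding genes. ETS letters stood in 25.3% against 11.6%, YY1 letters in 16.1% against 5.25%, ERR letters in 9.20% against 4.08%, and CRE letters in 9.20% against 3.84%. SP letters (46.0% against 46.2%), CCAAT (41.4% against 38.2%) and TATAAA (11.5% against 12.6%) were about as frequent in both. Among windows whose start lay inside a consensus region, 84 of members and 11466 of all genes, NRF1 letters stood in 15.5% against 6.74%, ETS letters in 26.2% against 19.1%, and YY1 letters in 16.7% against 8.56%. There the SP letters were rarer in members, 46.4% against 67.9%. Median GC content was 58.8% in these member windows and 62.0% in all such windows. These shares describe letters and say nothing of binding.

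A gene was counted as open when a consensus region, a stretch called as a peak in at least 2 of the 16 libraries, lay within 1 kb of either gene end. By this rule 91 of 100 members were open, against 13297 of 21887 protein-coding genes (60.8%). The members' state hardly varied between libraries. In each library 90 or 91 members were open, while the share of all genes moved between 50.8% (control IL-1β replicate 2, which had the fewest peaks, 37543) and 58.6% (control baseline replicate 3, which had the most, 72525). In all 16 libraries 90 members (90%) were open, against 48.8% of all genes. The member that differed was Cox4i2, an isoform of complex IV subunit 4 known from lung, called in 1 control baseline and 1 diabetic IL-1β library with at most 10 reads at its summit.

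**Figure D1:**
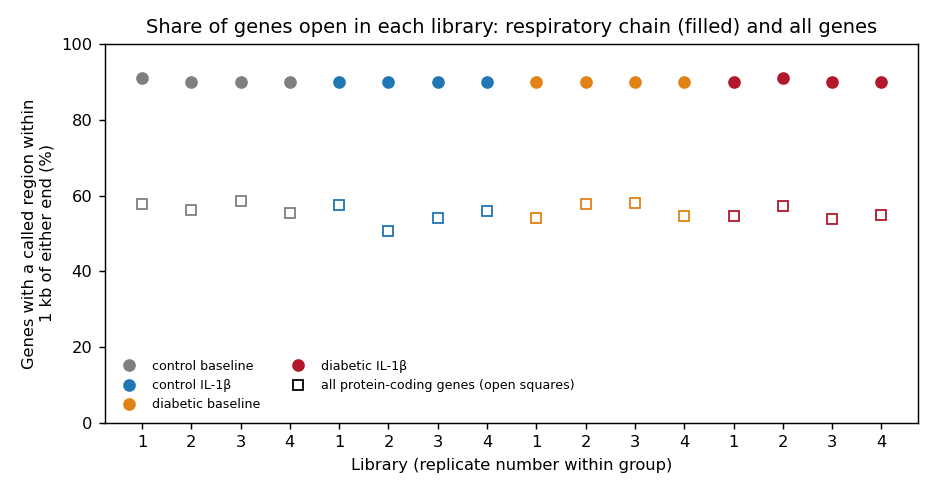
Percent of genes with a called region within 1 kb of either end (y axis) in each of the 16 libraries (x axis, replicate number within the coloured group). Filled circles, the 100 respiratory chain genes, stay at 90% or 91%, while open squares, all protein-coding genes, lie between 50.8% and 58.6%.

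Of the 9 members with no region at either end, 6 also had none at a start site of the promoter table, or no entry there. They are Cox6a2 and Cox8b, the heart and muscle isoforms, Cox7b2 and Cox8c, isoforms known from testis, and Ndufb4b and Ndufb4c, by name copies of the complex I subunit gene Ndufb4. Peaks at near-identical copies can be lost when reads map to several places, and no label says how such reads were treated. The other 3 are housekeeping genes whose gene model starts far upstream of a start site in the promoter table. They are Atp5d, the delta subunit of complex V (3577 and 3617 bp inside the model), Cox5a (3904 bp) and Cox7a2 (11569 bp). The regions over these start sites were called in all 16 libraries with means of 85.1, 81.1 and 102 scaled summit reads. With them 94 members had an open end or start site. This wider rule was chosen after seeing the data, and the 60.8% of all genes above counts gene ends only.

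Isoform pairs of complex IV thus split. Cox4i1 (mean of 98.8 scaled reads) was open in all libraries beside the mostly closed Cox4i2, Cox6a1 (79.4) beside the closed Cox6a2, Cox7b (29.2) beside the closed Cox7b2, and Cox8a (98.9) beside the closed Cox8b and Cox8c. The pairs Cox7a2 with Cox7a1 (56.4) and Cox6b1 (48.1) with the testis isoform Cox6b2 (39.5) were open on both sides, in every library. Cox7a1 is known from heart and skeletal muscle and lay at 47.4 to 64.6 scaled reads over the 16 libraries. Of 6 muscle and heart markers, Myh6, Myh7, Actc1 and Tnnt2 had no consensus region, while Ckm had a region in all libraries (a summed level of 31.1 to 51.0 scaled reads at control baseline) and Myod1 had one in fewer libraries. Ndufa4 (83.0), a subunit long listed with complex I and found with complex IV, and its hypoxia-linked paralog Ndufa4l2 (21.5) were both open. The Ndufa4l2 region with that level lay 596 bp from the gene, and a second one 4 bp from the gene was called in 15 libraries with 12 to 35 summit reads. Both also lay within 1 kb of Stac3.

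Levels are reads at the highest summit of a region, recovered as whole numbers from the deposited fold and p-value of each peak and scaled so that all libraries had equal medians. They could be compared over the 24955 regions called in all 16 libraries, which hold 94 of the 111 member regions and 90 of the 91 open members. The other 17 member regions, called in 2 to 15 libraries, held 6 to 35 reads at their summits. The member genes' median of 69.2 scaled reads (quartiles 55.1 and 89.3) lay next to the median of 69.5 over the 10622 genes with such a region (44.8 and 97.3). In the deposited fold over background the median per library over the highest region of each of the 90 members was 11.9 to 14.4. Over all 9942 shared gene-end regions, not only the highest of each gene, it was 9.74 to 11.8, so that the units differ. The members' median stood at the 88.5th to 94.0th percentile of its own list. Regions sat on starts: 75 of the 76 members with known strand had their highest region nearest to the start, with a median of 50 bp from summit to start. The exception was Ndufb6, whose far end lies by Topors. Many lay by a further gene: 46 of 94 member regions (48.9%) were also within 1 kb of an end of another gene, against 17.9% of all shared gene-end regions. Starts and far ends of the other gene were not counted apart, and signal there cannot be divided between the genes.

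Among complex I subunits the highest region was that of Ndufb5 (chr3:32736342-32737545), an accessory membrane-arm subunit, whose region also lies within 1 kb of the mitochondrial ribosomal protein gene Mrpl47. It held 109, 119, 105 and 132 scaled reads at control baseline, 116, 138, 131 and 142 after IL-1β in controls, 134, 127, 111 and 185 at diabetic baseline, and 144, 127, 148 and 132 after IL-1β in diabetic mice. The 4 groups overlapped, and diabetic baseline replicate 4 stood highest. The lowest was Ndufa4l2 (chr10:127508331-127508678), at 15.7 to 27.6 in the 16 libraries. Catalytic core subunits lay between them, such as the flavoprotein genes Ndufv1 (mean of 95.5) and Ndufv2 (119.7), Ndufs1 (70.9) and Ndufs8 (103).

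Assembly factors of complex I ran from Ndufaf8 (chr11:120098483-120099331, 86.4 to 141 over 16 libraries) to Ndufaf1 (chr2:119662399-119663267, 14.9 to 25.8). Ndufaf1 builds the membrane arm, and its region covered the start, 1.5 bp from the summit. Complex II ran from Sdhb (chr4:140961000-140961731, mean of 102) to the assembly factor Sdhaf4 (chr1:24005211-24005887, 36.9), and its catalytic subunit Sdha lay at 70.6. Complex III ran from Uqcrq (chr11:53430274-53431412, 117), next to Gdf9, to Uqcr11 (chr10:80406465-80407734, 35.8). The core subunits Uqcrc1 (64.0) and Uqcrc2 (68.8) lay in the middle, and the Rieske protein gene Uqcrfs1 at 88.0.

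Complex IV ran from Cox8a (chr19:7217164-7218267), with 91.1, 96.9, 90.7 and 107 scaled reads at control baseline, to Cox6c (chr15:35937470-35938355), with 23.6, 21.7, 25.7 and 19.6. Complex V ran from Atp5j (chr16:84834499-84836000), a coupling factor gene whose region also lies within 1 kb of Gabpa, the gene of a GABP subunit, to Atp5l (chr9:44920313-44921421). Atp5j held 104, 118, 94.1 and 114 at control baseline and Atp5l held 31.4, 31.7, 36.5 and 28.5. The catalytic beta subunit gene Atp5b had a mean of 113, and the alpha subunit gene Atp5a1 had 46.0. The highest and lowest genes were picked for their levels, so the gaps between them are a description.

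**Figure D2:**
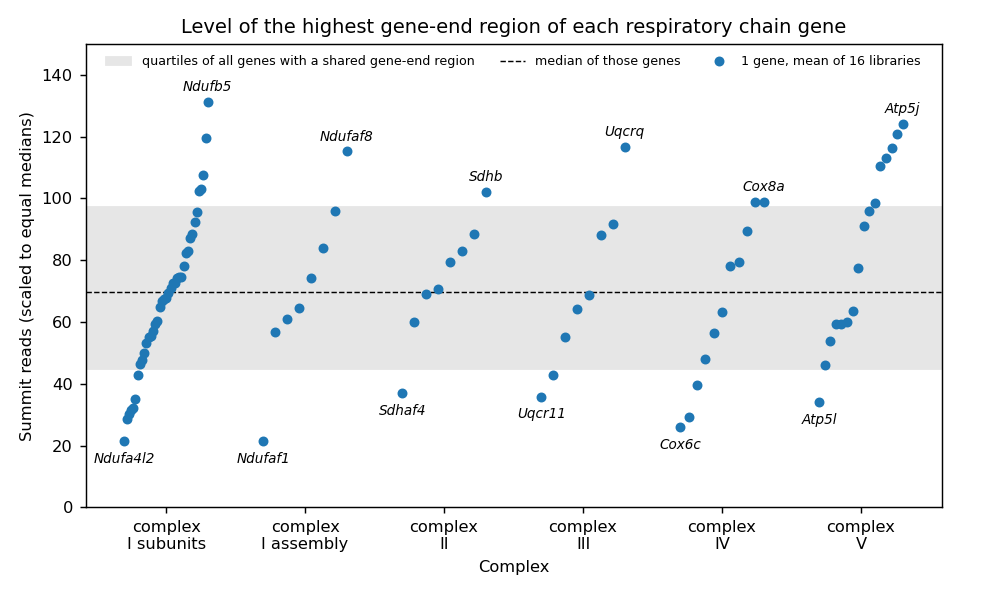
Each point is 1 of the 90 members with a shared gene-end region, with its mean over 16 libraries in summit reads scaled to equal medians (y axis), by complex (x axis). The grey band and dashed line are the quartiles and the median of all 10622 genes, and the named genes are the highest and lowest of each complex, from 131 at Ndufb5 to 21.4 at Ndufaf1.

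IL-1β with culture was compared with baseline over 8 libraries against 8, averaging the change in control and diabetic mice. The limma fit held no term for the mouse sample, and Benjamini-Hochberg adjustment was over all 24955 regions. No member region passed the adjusted threshold of 0.05. The background was 9.82% of all regions (6.42% higher and 3.4% lower) and 4.22% of the 9942 shared gene-end regions (2.77% higher and 1.46% lower). At an unadjusted p under 0.05 there were 8 member regions (8.51%), 6 higher and 2 lower, against 14.4% of gene-end regions and 22.7% of all. The median member change was 0.02 on the log2 scale, from -0.28 to 0.33, against 0.04 over gene-end regions and 0.03 over all, and it became -0.02 with cyclic loess and -0.25 with scaling by background, which moved the median of all regions to -0.24. That scaling turned the split of all called regions from 1603 higher and 848 lower to 203 higher and 2343 lower, and the member region of Uqcrb passed there (-0.50, limma adjusted p = 0.0479). The estimates were tight: the 95% interval of 93 of the 94 member regions lay within a 1.5-fold change either way, which held for 93.7% of gene-end regions and 79.9% of all. Each complex had its median near 0, from 0.00 in complex V to 0.11 in the complex I assembly factors.

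**Figure D3:**
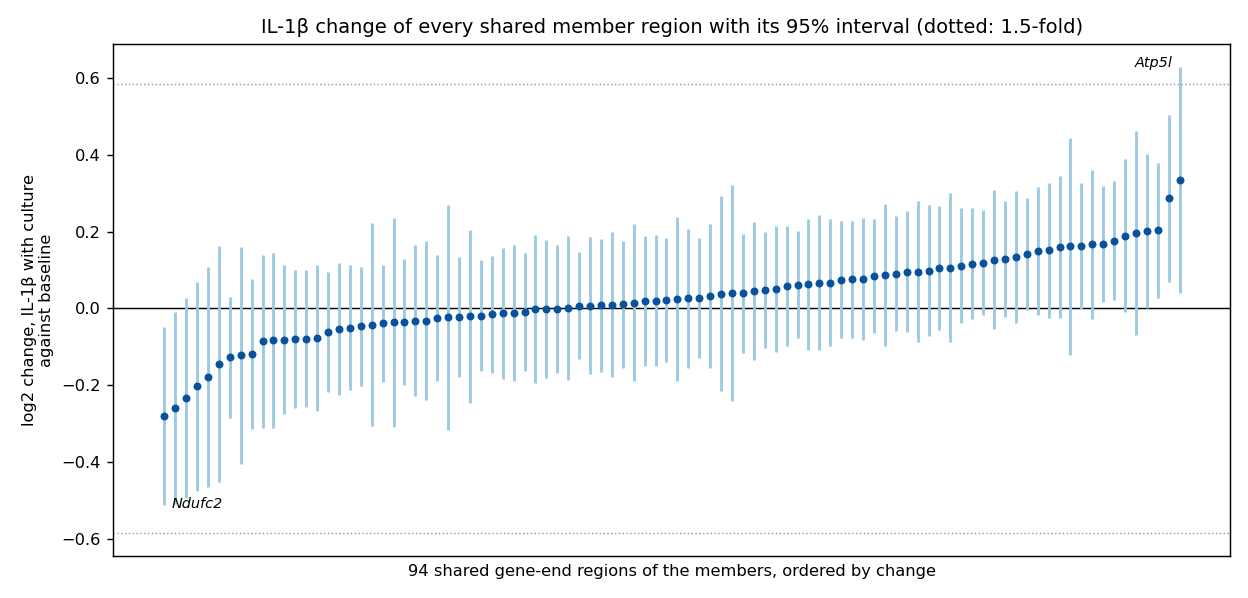
Log2 change after IL-1β with culture (y axis) of the 94 shared member regions, ordered by size (x axis), as points with 95% intervals from limma. All points lie between -0.28 (Ndufc2) and 0.33 (Atp5l), and 1 interval reaches past the dotted lines at 1.5-fold.

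The largest change was at Atp5l, with 17.4 to 36.5 at baseline (median 31.6) and 27.1 to 50.1 after IL-1β (median 37.1). It was higher in 7 of 8 mouse samples, with ranges that overlapped (0.33, SE 0.14, limma adjusted p = 0.150). Sdhaf1, an assembly factor of the iron-sulphur subunit of complex II, went from a median of 76.8 to 95.6 (0.20, SE 0.09, limma adjusted p = 0.142). The remaining larger values were Uqcrc2 at 0.20 (SE 0.10), Ndufa4l2 at 0.20 (SE 0.13) and Ndufa5 at 0.19 (SE 0.10). None of these passed. With the mouse sample as a block, 1 of the 94 member regions passed, in a fit that called 3694 regions (14.8%) in all.

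On the lower side, Ndufc2, a small membrane-arm subunit of complex I, held 31.8 to 40.7 at baseline and 21.4 to 33.6 after IL-1β. It was higher in 1 of 8 mouse samples (-0.28, SE 0.11, limma adjusted p = 0.125). Cox7b went from a median of 33.6 to 26.0, lower in 4 of 4 diabetic and 2 of 4 control samples (-0.26, SE 0.12, limma adjusted p = 0.198). Uqcrb had -0.23 (SE 0.13), Ndufb8 -0.18 (SE 0.14), Ndufa9 -0.14 (SE 0.15) and Atp5g3 -0.13 (SE 0.08), and none passed. No member region had all 8 values after IL-1β above, or all 8 below, the 8 baseline values, which held upward for 0.523% and downward for 0.272% of gene-end regions, and for 1.58% and 0.645% of all.

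**Figure D4:**
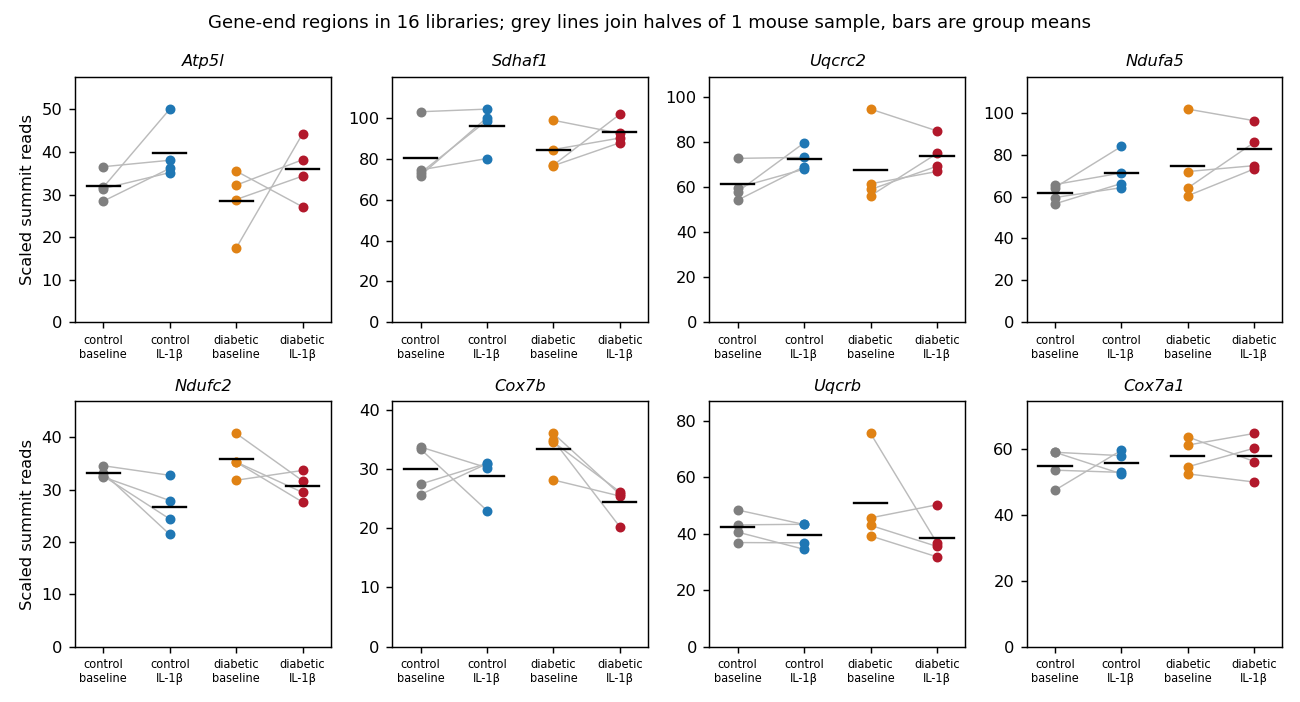
Scaled summit reads (y axis) in the 16 libraries by group (x axis) for 8 members, with grey lines joining the portions of 1 mouse sample and black bars for group means. Atp5l goes up in 7 of 8 samples, Ndufc2 in 1 of 8, and the values at baseline and after IL-1β overlap in each panel.

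One library decides part of this count. Diabetic baseline replicate 4 had the lowest background (0.856 reads per window) and the highest median over member regions, 0.24 above the mean of the 16 libraries on the log2 scale, as it had over all gene-end regions (0.24). It held the highest of the 16 values in 46 of 94 member regions, a count that was not taken over other regions. Without it, 6 member regions (6.38% of 94) passed in limma, all higher: Uqcrc2 (0.29), Ndufa5 (0.27), Atp5j (0.25), Sdhaf1 (0.24), Ndufab1 (0.21) and Uqcrq (0.20). In that fit 4248 of all regions (17.0%) passed, so that the members' share stayed under the share of all regions. Without control baseline replicate 4 only Sdhaf1 passed (0.27, limma adjusted p = 0.0353), 1.06% of the member regions, against 2086 of all regions (8.36%). Without diabetic baseline replicate 1 the count was also 1, against 2692 of all regions (10.8%).

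Diabetic and control mice at baseline were compared as 4 libraries against 4. In limma no member region passed and none of the 24955 regions did (background 0%). At an unadjusted p under 0.05 there were 5 of 94 member regions (5.32%), all higher, against 11.2% of gene-end regions and 11.8% of all. The median member change was 0.11, next to 0.13 over gene-end regions and 0.07 over all, and 76 of 94 member regions lay above 0, as did 79.1% of gene-end regions. These values turn with the scaling, since the median member change was 0.04 with cyclic loess and -0.11 with scaling by background, where the median of all regions was -0.15. Without diabetic baseline replicate 4 the median was 0.05.

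Cox6c had the largest difference, with 23.6, 21.7, 25.7 and 19.6 scaled reads in controls and 31.2, 30.8, 24.8 and 39.3 in diabetic mice (0.47, SE 0.19, limma adjusted p = 0.423). The third diabetic library lay inside the control range. Sdhaf3, a complex II assembly factor, held 48.7, 51.8, 54.1 and 52.0 in controls and 55.4, 66.4, 60.9 and 100.3 in diabetic mice (0.42, SE 0.14, same adjusted p). These did not overlap, which held in the same direction at Atp5j2 and in the opposite direction at 0 of 94 member regions. Over gene-end regions the groups did not overlap in 3.45% with diabetic values higher and 0.563% with them lower, and over all regions in 2.47% and 1.88%, so that 2 of 94 (2.13%) was near the background. Ndufaf5 had 0.39 (SE 0.19), with 43.3 and 109 as the lowest and highest diabetic values. Without diabetic baseline replicate 4 the differences were 0.35 at Cox6c, 0.23 at Sdhaf3 and 0.16 at Ndufaf5. On the lower side were Atp5l at -0.21 (SE 0.20) and Ndufb10 at -0.15 (SE 0.13), where that library held the lowest of the 4 diabetic values, and without it they came to 0.01 and -0.03.

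**Figure D5:**
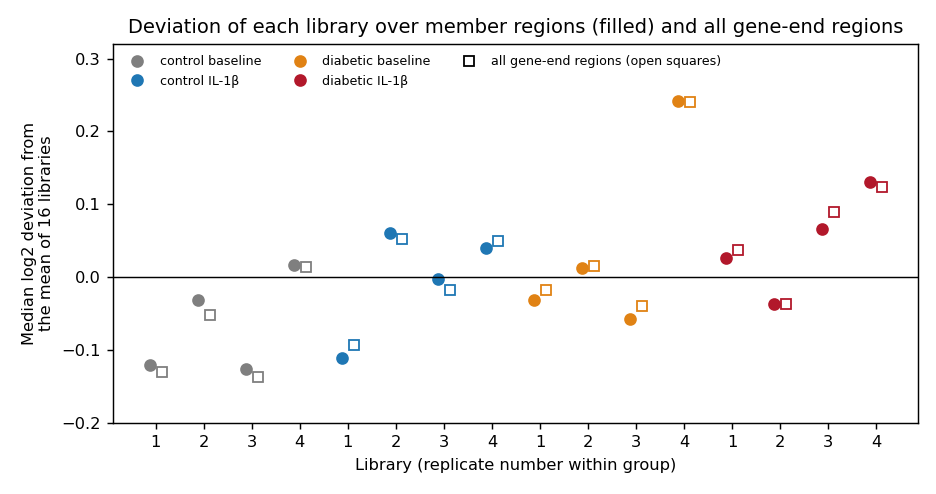
Median log2 deviation of each library from the mean of all 16 (y axis), by library (x axis, replicate number within the coloured group), for the 94 member regions (filled circles) and all 9942 shared gene-end regions (open squares). Both sets move together, and diabetic baseline replicate 4 stands apart at 0.24 in each.

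After IL-1β no member region differed between diabetic and control mice in limma, nor did any other region (background 0%), with 2 of 94 (2.13%) at an unadjusted p under 0.05, against 3.26% of gene-end regions and 4.35% of all. At 0 of 94 member regions did the groups not overlap, against 2.51% of gene-end regions with diabetic values higher and 0.533% with them lower, and 2.33% and 1.24% of all. The median member change was 0.05, as over gene-end regions (0.05), and -0.20 with scaling by background. Ndufaf6, an assembly factor of complex I, held 40.9, 60.9, 54.7 and 58.9 in controls and 62.6, 64.5, 78.5 and 59.5 in diabetic mice (0.31, SE 0.13, limma adjusted p = 0.970). The groups overlapped in 1 diabetic library, and a smaller second region of Ndufaf6 went the other way (-0.41). Sdhaf4 (0.28, SE 0.20) and Ndufaf2 (0.25, SE 0.13) were next, and on the lower side were Cox7b (-0.24, SE 0.17) and Ndufaf5 (-0.17, SE 0.19).

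Whether the IL-1β change differed between phenotypes was tested as an interaction in limma. None of the 94 member regions passed, and none of the 24955 regions did (background 0%). An unadjusted p under 0.05 was found at 0 of 94 member regions, 1.147% of gene-end regions and 1.67% of all. The median difference, diabetic minus control, was -0.04 over members and -0.07 over gene-end regions, and without diabetic baseline replicate 4 it was 0.00 and -0.01. The median 95% interval, without adjustment, reached 0.35 to either side of the estimate. At such a region an estimated difference smaller than that has an unadjusted p over 0.05, and passing the adjusted threshold takes a larger one. The power to detect a given difference between the phenotypes was not computed. The largest estimated difference was at Ndufaf5 (-0.56, SE 0.27). There diabetic baseline replicate 4 held 109 scaled reads, and without it the diabetic difference at baseline went from 0.39 to 0.16.

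Other lists of mitochondrial energy metabolism, which partly overlap the members, were in a like state. Among regulators of mitochondrial biogenesis 17 of 18 were open (Gabpb1 was not), and Gabpa among them lies by the Atp5j region counted with the members. In a list of assembly and cofactor genes 32 of 33 were open (all but Atpaf2), but it holds the members Sdhaf1, Sdhaf2, Sdhaf3 and Sdhaf4. Among electron carriers and further subunits 19 of 20 were open (all but Pdss2), and in the tricarboxylic acid cycle 13 of 14 (all but Idh2). In limma 0 of their 17, 34, 21 and 13 shared regions passed in the IL-1β comparison or in any other. The share over gene-end regions was 4.22% in the IL-1β comparison and 0% in the others. Median IL-1β changes of these lists were 0.09, 0.04, 0.05 and -0.01, against 0.04 over gene-end regions. Their median diabetic differences at baseline were 0.20, 0.17, 0.18 and 0.10, against 0.13 over gene-end regions. Without diabetic baseline replicate 4 that gene-end median was 0.06, and with scaling by background it was -0.09.

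Regions near marker genes were also listed, which does not measure the make-up of the fraction. Of 10 stem and progenitor markers 9 were open, Kit, Cd34, Flt3 and Meis1 among them, and 2 of 5 T cell and 2 of 5 B cell markers were open. Of the T cell list, Cd3d had a region in all 16 libraries (72.7 to 106.7 scaled reads) and Cd4 one in 7, 768 bp from the gene and also within 1 kb of Gpr162, while Cd3e, Cd3g and Cd8a had none. Of the B cell list, Cd79a had a region in all 16 libraries (48.0 to 115.1), 768 bp from the gene and also within 1 kb of Arhgef1, and Cd79b had one in 10, while Ms4a1 and Pax5 had none. All 6 erythroid and all 6 neutrophil markers were open. The summed level of the erythroid list was 111 to 202 scaled reads at control baseline and 131 to 318 at diabetic baseline, and that of the neutrophil list 419.6 to 503.6 and 257 to 458. Over 5 erythroid and 7 neutrophil regions the median diabetic difference at baseline was 0.58 and -0.31, with 0 regions past the threshold in limma. After IL-1β with culture S100a9 of the neutrophil list rose, Retnlg fell, and the region shared by Cd79a and Arhgef1 rose in limma. In such bulk samples fewer open cells and less signal per cell cannot be told apart, and the part of cell make-up in the values of the respiratory chain genes was not tested.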

How the data were processed

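The 16 peak lists, 1 per library, hold positions on mm10. The submitters' processing notes name MACS2 2.1.1, Bowtie2 2.2.6, edgeR, DiffBind 2.4.8, Trim Galore 1.8 and FastQC 0.11.3, without their roles. Read shifting for Tn5 and duplicate removal are not given in the sources used here, and both would change reads per summit. Per the labels, 50000 cells were used per library, with 50-bp single reads. Each deposited line gives a score, a fold (a ratio over local background), a −log10 p, a −log10 q and a summit offset, all from the authors' peak caller. The score and offset served only to place and check peaks.

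Peaks that overlapped or touched were merged, giving 102496 regions, of which 83972 had calls from 2 or more libraries. Gene ends are those of the RefSeq GRCm38.p6 gene table, whose main chromosomes are those of mm10. From the deposited fold and −log10 p, whole reads per summit were recovered with a tolerance of 0.001 on the −log10 p, which held for at least 99.9987% of summits in every library. Depth is known only through such reads, with a background of 0.856 to 1.71 reads per window and a median of 27 to 58 at shared regions. Summit reads of the 24955 regions called in all 16 libraries were taken to log2, brought to equal medians per library and fitted with limma 3.58.1 (R 4.3.3) with 4 group means and a trended variance, with Benjamini-Hochberg adjustment at 0.05. The fit leaves out regions that lost a call in any library. On simulated data with 200 of 24955 regions changed by 1 on the log2 scale in the IL-1β comparison, 193 were recovered with 11 false calls. The simulated libraries were independent, with a preset noise. Member changes lay between -0.28 and 0.33, and recovery of changes that small was not simulated.

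Each phenotype has 4 mouse samples as its replicates. The main fit takes the 16 libraries without a term for the mouse sample. Its p-values for the IL-1β comparison and the interaction thus leave out the pairing of libraries. Libraries of the same mouse sample carry the same number within a phenotype, by the series' design. Deviations of these pairs from their group means correlated by 0.42, 0.36, 0.01 and 0.07 in control and 0.40, 0.19, -0.04 and 0.33 in diabetic mice. Named members are those past the threshold in any comparison, the highest and lowest of each complex, those with no region, the largest rises and falls (6 each for IL-1β, 3 each for diabetes) and the isoform pairs. Some genes that these rules and lists hold are counted but not reported here by name. Sequences come from RefSeq's promoter table. The members, the gene lists and these rules were chosen with earlier results of these data known. Alternatives were background scaling, cyclic loess, regions called in at least 12 libraries, sums over summits, a −log10 q of at least 5, a replicate block and each library left out, and for openness other windows and library minima.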

Additional observations from a re-analysis of the deposited data

Results flagged for a closer look

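Among 140 groups of 4 values of the named members and of library medians, 9 had 1 library far from the other 3 by Dixon's criterion. Chance flags about 1 in 20 such groups, and none was followed further. In diabetic baseline libraries, replicate 4 stood apart upward at Atp5j (180.3 scaled reads, the others at 107 to 118), at Uqcrc2 (94.5, the others at 56.1 to 61.4) and at Ndufaf6 (59.6, the others at 52.1 to 53.3), and replicate 1 stood apart downward at Ndufaf1 (17.1, the others at 21.6 to 22.4). In control baseline libraries, Sdhaf1 had 1 high value (103, the others at 71.8 to 74.6) and Cox6b2 had 1 low value (32.2, the others at 35.9 to 36.3). In control IL-1β libraries, Cox6b1 had 1 high value (52.3, the others at 43.3 to 43.4) and Cox7b had 1 low value (23.0, the others at 30.3 to 31.0). In diabetic IL-1β libraries, Cox7b again had 1 low value (20.3, the others at 25.5 to 26.2).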

How the results depend on the processing

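The count of member regions past the threshold after IL-1β, 0 of 94, was 1 with background scaling (Uqcrb, lower), 1 with regions called in at least 12 libraries (a far-end region of Ndufb7 beside Tecr, 0.48), 1 with sums over summits (Sdhaf2, 0.28) and 1 with the replicate block. It was 0 with cyclic loess and with the stricter peak lists, and 0 to 6 with each library left out. The count over all regions, 2451, was 2546 with background scaling (10.2%) and 1894 with sums over summits (7.59%). It was 3809 of 40976 with at least 12 libraries (9.30%), 3694 with the replicate block and 1897 to 4248 with each library left out. The replicate block changed no other call. Both diabetic comparisons and the interaction gave 0 member regions in every setting run, and over all regions sums over summits called 1 in the interaction.

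With background scaling, changes of Sdhaf1 (-0.066), Uqcrc2 (-0.068), Ndufa4l2 (-0.073) and Ndufa5 (-0.081) after IL-1β turned below 0. With sums over summits Uqcrc2 came to -0.030 and Uqcrb to 0.033 after IL-1β, and Atp5l to 0.56 in diabetic mice at baseline. With each library left out, Atp5l in diabetic mice at baseline ranged from -0.334 to 0.0074, the latter without diabetic baseline replicate 4. The 91 open members became 90 with 500 bp, with 4 or all 16 libraries, with a −log10 q of 5 or with the summit inside the window, 93 with 2 kb, and 90 to 91 with each library left out. They became 94 with start sites of the promoter table, a setting chosen after seeing the data. The cause of these shifts was not tested. Depth limits regions with few reads most, and regions called in under 16 libraries were not tested.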
